A study of Homo sapiens with 18 samples.

Results

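Replication-dependent histone genes were examined in poly(A)-selected RNA of IMR90 ER:RAS cells. Members were all rows of the count table whose symbol follows the current or former nomenclature of these genes, that is H1-1 to H1-6 and the numbered H2AC, H2BC, H3C and H4C symbols. The rule used symbols and no measured value, although it was set with earlier results of these data known. The rule found 66 of 28266 gene rows, made up of 17 genes for H2B, 16 for H2A, 14 for H4, 13 for H3 and 6 for the linker histone H1. Every library came from IMR90, a fibroblast line of human lung, in a version that carries ER:RAS, a fusion of the oestrogen receptor's ligand-binding part with oncogenic RAS. In all groups RAS can be switched on by 4-hydroxytamoxifen (4OHT), so the senescence studied here is that of 1 oncogene in 1 line. Cells received 100 nM 4OHT (senescent) or DMSO (control) and were cultured for 7 days, then received DMSO, IMP1088 (300 nM) or DDD86481 (1.5 µM) for 3 days, and were collected on day 10. IMP1088 and DDD86481 inhibit N-myristoyltransferases, the enzymes that attach the lipid myristate to proteins. The 6 groups, control DMSO, control IMP1088, control DDD86481, senescent DMSO, senescent IMP1088 and senescent DDD86481, had 3 libraries each.

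Histone genes of this class are transcribed in S phase, when newly made DNA needs new nucleosomes. Their pre-mRNAs have no introns and are cut just after a short conserved hairpin, the histone stem-loop, which SLBP (stem-loop binding protein) holds while the U7 snRNP directs the cut. The mature messenger therefore ends at the stem-loop and has no poly(A) tail, and it is degraded once replication stops. Some of these genes also give longer transcripts that pass the stem-loop, are spliced or use a downstream polyadenylation signal, and such transcripts carry a poly(A) tail. A library made from poly(A) RNA holds the tailed forms and whatever untailed messenger is carried along, so the values below are levels of histone RNA in poly(A) RNA and not of histone mRNA as a whole. In bulk RNA, fewer cells that use a gene and less RNA of it per cell cannot be told apart.

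The stem-loop was found in the reference for all 61 members with a GENCODE entry on GRCh37, within 300 bases after the stop codon, in the transcript's sense. A motif search with the same limit found it in 69 of 19085 canonical coding transcripts of all genes (0.362%). The sequences of the member with the most counts, of the member that fell most and rose most in senescent cells, and of H2A and H4 members described below are shown from 5′ to 3′ as DNA letters, with the hairpin in capitals.
H2BC12: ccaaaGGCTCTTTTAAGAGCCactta
H2AC6: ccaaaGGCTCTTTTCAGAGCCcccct
H1-2: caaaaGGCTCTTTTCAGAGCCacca
H2BC4: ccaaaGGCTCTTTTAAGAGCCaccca
H2BC15: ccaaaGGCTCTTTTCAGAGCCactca
H2AC8: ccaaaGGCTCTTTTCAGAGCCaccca
H4C3: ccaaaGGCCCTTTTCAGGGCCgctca
The hairpin of H1-2, H2AC6, H2AC8 and H2BC15 was shared by 36 of the 61 members, that of H2BC12 and H2BC4 by 8, and that of H4C3 by 7. The hairpin began 36 bases after the stop codon in H2BC12 and H2BC4, 43 in H2AC6, 27 in H1-2 and 57 in H4C3. Of the members shown, H2BC12 had the most counts (23394) and H4C3 the fewest (41), and their hairpins differed. H2AC6 and H2BC15, with 8884 and 246 counts, had the same hairpin. A part of the hairpin letters in the counts was not tested.

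The members together held 54838 counts, 0.0157% of all counts of the 18 libraries, which had totals from 16143716 to 23189950 counts. No count was found in any library for 12 members, and 34 members, these 12 included, had at most 3 counts in every library, the number that a count of 0 allows. The filter on low counts left 15 members for testing, with 98.7% of the members' counts, and 51 were not tested. The 6 members with the most counts, H2BC12, H2AC6, H2BC21, H1-2, H2BC5 and H2BC4, held 92.4% of the members' counts, and H2BC12 alone held 42.7%. By family, H2B had 68.7%, H2A 17.5%, H1 10.2%, H4 1.87% and H3 1.72%. The H3 and H4 families had 27 genes between them, more than H2B, but few reads.

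**Figure D1:**
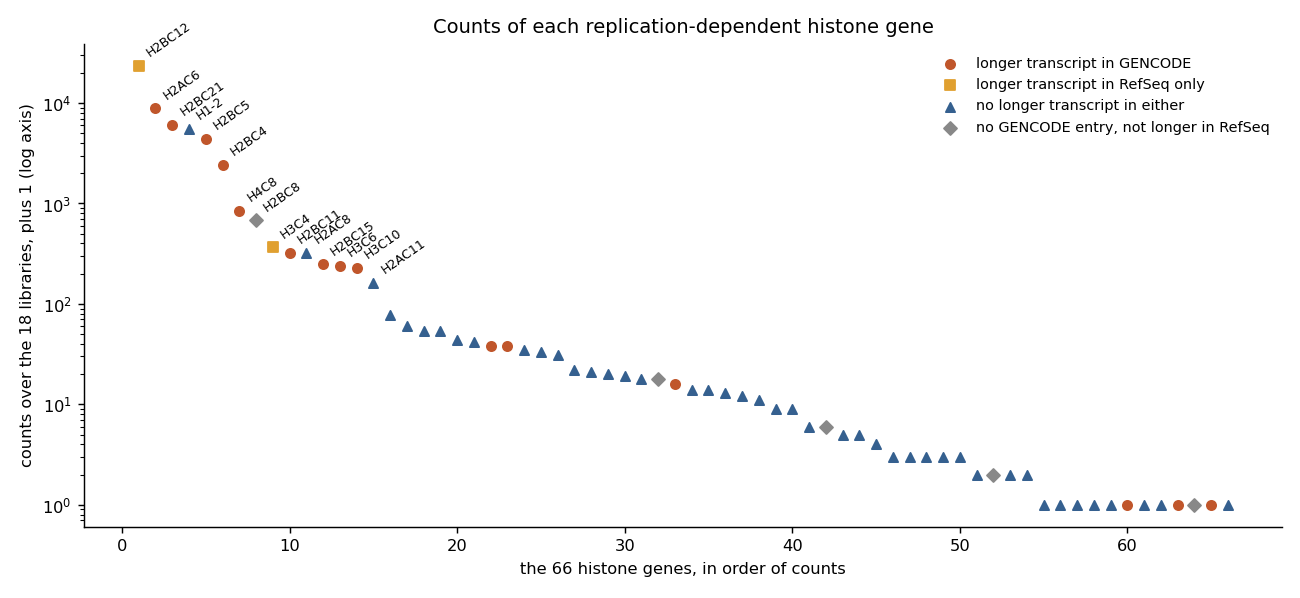
Counts summed over the 18 libraries for each of the 66 histone genes, plus 1 so that genes without a count can be drawn, on a log axis, in order of counts, with the 15 tested genes named. Colours and symbols show whether the reference has a transcript that is spliced or runs past the stem-loop. H2BC12 stands first with 23394 counts and H1-2 is the only gene among the first 6 without such a transcript in either annotation.

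The members were split by the reference alone. In GENCODE, 15 of the 61 members with an entry had a transcript with an intron or with an end more than 100 bases past the stem-loop, and these 15 held 43.2% of the members' counts, against 55.5% for the 46 others. A long form of H2BC12, with a span of 8566 bases, and one of H3C4 stood in RefSeq alone. When a RefSeq span of over 1000 bases also counted, a rule set after the data were seen, 17 members had a long form and held 86.6% of the counts, and 49 had none and held 13.4%. Of the 17, 11 were tested and 3 had no count, and of the 49, 4 were tested and 9 had no count. The median total over 18 libraries was 246 counts for the 17 and 8 counts for the 49. The classes overlapped, since H1-2 had 5560 counts and no long form.

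Most members lie in the histone cluster on chromosome 6 (GRCh37), with others, H2BC21 among them, on chromosome 1. H2BC12 is annotated by GENCODE as 1 exon at chr6:27114140-27114634 on the minus strand, H2AC6 spans chr6:26124373-26139344 on the plus strand with an intron, and H2BC4 spans chr6:26086545-26124154 on the minus strand. The exons of H2BC4, over all its transcripts, overlap HFE and a further gene on the opposite strand, together over 30.9% of their bases. H3C4 lies over 96.6% of its length within another gene on the same strand. The counts of H2BC4 and H3C4 are therefore uncertain where reads were not assigned by strand or to 1 gene. Of the windows of 75 bases, the read length, in H2BC12, 61% occurred once in the genome, against 95.1% in H2BC21, 98.3% in H2BC5, 99.4% in H2BC4 and 100% in H2AC6 and H1-2. H3C14, H3C15, H4C14, H4C15 and H2AC19 had no such window and no count, so a count of 0 says nothing of their RNA. H2BC8 had no GENCODE entry and its length and overlaps were not checked.

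Head-to-head pairs of members share the stretch between their start sites, and their counts, not corrected for length, are given side by side. The starts of H2BC12 and H2AC12 lie 251 bases apart, and they had 23394 and 1 counts. H2BC21 and H2AC20, with 236 bases between their starts, had 6050 and 53 counts. In the pair of H2BC4 and H2AC6, 219 bases apart, the H2A gene had 8884 counts and the H2B gene 2416, with exonic lengths of 1668 and 2881 bases. H2BC11 and H2AC11, 248 bases apart, had 323 and 162 counts.

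Promoters of H2B genes are known for an octamer, ATTTGCAT, which binds OCT1. In the 300 bases around each start in RefSeq (GRCh38.p14), searched on both strands, it occurred in 492 of 27305 promoters (1.8%). It was present in 14 of 17 H2B and 11 of 15 H2A members, in 1 of 11 H3 members and in 0 of 12 H4 and 0 of 6 H1 members. Promoters of a member that rose in senescent cells and has the octamer, of the member that rose most and lacks it, and of the member that fell are shown from 5′ to 3′ with the octamer in capitals, at chr6:26123877-26124176 (minus strand), chr6:27838319-27838618 (plus strand) and chr6:26056421-26056720 (minus strand).
H2BC4: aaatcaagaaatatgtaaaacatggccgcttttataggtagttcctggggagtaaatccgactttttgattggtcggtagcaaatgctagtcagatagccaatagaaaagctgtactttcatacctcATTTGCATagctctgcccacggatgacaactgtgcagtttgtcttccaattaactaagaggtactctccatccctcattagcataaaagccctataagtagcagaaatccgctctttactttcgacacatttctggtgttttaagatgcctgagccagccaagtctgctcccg
H2BC15: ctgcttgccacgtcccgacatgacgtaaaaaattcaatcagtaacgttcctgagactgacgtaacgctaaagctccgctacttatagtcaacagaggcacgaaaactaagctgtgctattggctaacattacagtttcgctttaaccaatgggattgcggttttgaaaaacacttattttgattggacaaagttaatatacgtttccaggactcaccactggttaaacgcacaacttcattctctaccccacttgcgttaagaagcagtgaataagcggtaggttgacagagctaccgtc
H1-2: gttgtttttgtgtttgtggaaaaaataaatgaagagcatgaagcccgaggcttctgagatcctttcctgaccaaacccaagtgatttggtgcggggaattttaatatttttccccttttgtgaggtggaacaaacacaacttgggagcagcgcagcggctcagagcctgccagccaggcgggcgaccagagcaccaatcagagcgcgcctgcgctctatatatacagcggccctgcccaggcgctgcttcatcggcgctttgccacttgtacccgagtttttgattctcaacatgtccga
A match in these windows is a description of letters and not of binding, and the octamer of H2BC4 did not set it apart from H2BC12, which has it too.

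Before the comparisons, replicates were set against each other. Within groups, counts of library pairs differed by a chi-square of 4.89 to 98.8 per gene, more than sampling noise, so no library was counted as a duplicate. The largest values were those of control DMSO replicate 3 with replicate 1 (98.8) and replicate 2 (50), and among drug-treated libraries those of senescent DDD86481 replicate 1 with replicate 2 (19.3) and replicate 3 (25.5). All 8 fibroblast markers were detected in every group, although 7 of them were lower in senescent than in control DMSO cells, DCN with 7.72 against 3040 CPM. Of the markers of other cell types, EPCAM, CDH1 and PTPRC stayed at or under 1 CPM in every group mean, whereas CD68, a lysosomal protein, rose from 17.5 CPM in control to 132 CPM in senescent DMSO cells, and the endothelial markers PECAM1 and CDH5 rose from 0.21 to 2.77 CPM and from 0.0134 to 1.77 CPM. The sum of these 6 markers lay between 16.1 and 20.2 CPM in control and between 125 and 155 CPM in senescent DMSO libraries, and its part in the results was not tested. CPM are counts scaled to a common library size with TMM factors, given as mean ± SD over 3 libraries. Log2 fold changes carry their SE, and adjusted p-values come from the quasi-likelihood test of edgeR over 14341 genes. The labels name replicates without saying what they are, and the study's supplement calls its replicates independent experiments where it shows these cells, so p-values measure the spread between these 3 libraries a group.

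Senescence was the comparison in which most members changed. With DMSO, H2BC4, H2BC11, H2BC15, H2BC8, H4C8, H2BC21 and H2AC6 rose in senescent cells and H1-2 fell. In all, 7 of the 15 tested members rose, 1 fell and 7 did not pass the test, against 68.5% of all 14341 genes called (32.5% higher and 36% lower). The share of tested members called was 53.3%, beside the 68.5% of all genes, so a change in itself did not mark these genes. Their median log2 fold change was 0.46, against -0.05 for all genes. The 51 members that were not tested are no part of these values, and a member near the filter could pass it through the group in which it was high. H2BC15, described below, was such a member. It is included in the 7 rises, the share and the median, which were not computed without it.

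Among H2B genes, which encode a histone of the nucleosome core, H2BC4 had 3.38, 3.18 and 2.54 CPM in the control libraries and 7.41, 7.9 and 9.39 CPM in the senescent ones. The groups did not overlap, and the log2 fold change was 1.43 ± 0.299 (adjusted p = 0.000267, edgeR). H2BC15 had 6, 1 and 3 counts in control libraries and 18, 20 and 26 in senescent ones, with a fitted log2 fold change of 3.09 ± 0.512. It had at most 7 counts in any control library and passed the filter on low counts through the senescent groups, in which it was high. Its place among the tested members follows from that filter, and its p is not given. With no filter its log2 fold change was 3.11, on the same few control counts. H2BC11 had 15, 10 and 5 counts and then 21, 20 and 34, with log2 fold change 1.78 ± 0.33. H2BC8 rose from 1.02 ± 0.162 to 2.14 ± 0.432 CPM. The H2B genes of this paragraph were picked from those called, so their separate groups of libraries add nothing to the calls. How many of all genes had separate groups was not counted, and the groups of H2BC12 and H2BC5 overlapped.

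H2BC21, an H2B gene of the cluster on chromosome 1, had 12.1, 10.3 and 8.26 CPM in control and 15.9, 17 and 17.9 CPM in senescent libraries, a log2 fold change of 0.72 ± 0.192 (edgeR, adjusted p = 0.00239). H2BC12 had 49.2, 54.3 and 72.8 CPM and 72, 69.3 and 72.4 CPM, overlapping groups, and did not pass the test (log2 fold change 0.28 ± 0.158, edgeR adjusted p = 0.124). The highest control value was that of replicate 3, and H2BC12 was called higher when that library was left out, and also with no filter on low counts. H2BC5 had 13 ± 2.55 and 12.8 ± 0.762 CPM, with a log2 fold change of -0.01 ± 0.182 (n = 3).

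**Figure D2:**
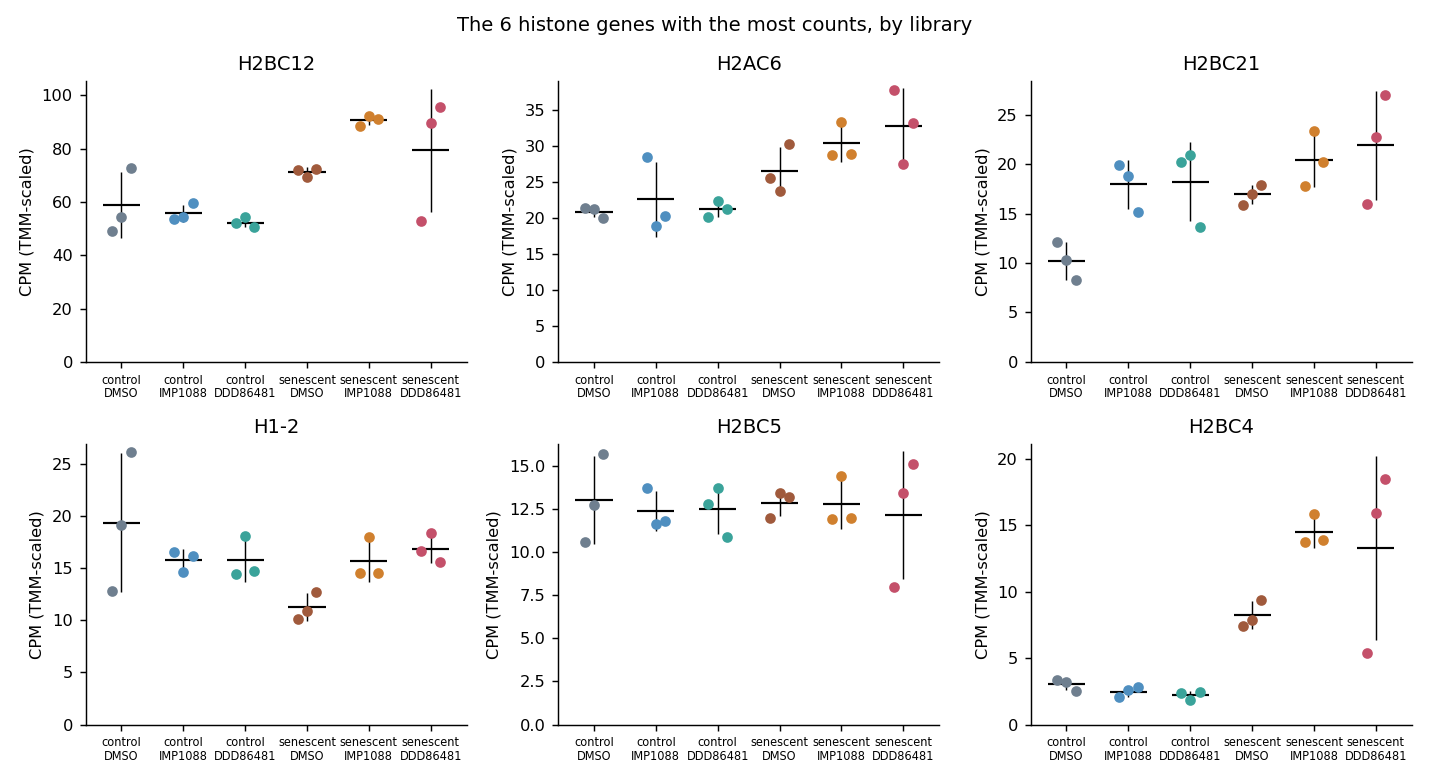
TMM-scaled CPM of the 6 histone genes with the most counts, 1 panel a gene, with a point for each of 3 libraries of a group, a horizontal line at the mean and a vertical line of 1 SD. H2BC4 is higher in every senescent than in every control library, H2BC21 is lowest in the control DMSO libraries, and 1 senescent DDD86481 library lies low in H2BC12, H2BC5 and H2BC4.

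H2AC6, which encodes H2A, the partner of H2B in the core, had 21.4, 21.2 and 20 CPM in control and 25.5, 23.8 and 30.3 CPM in senescent libraries (log2 fold change 0.35 ± 0.144, edgeR adjusted p = 0.0385). This call did not hold when libraries were scaled by the upper quartile (log2 fold change 0.19) or by plain library totals (0.09), or when any of 4 single libraries was left out. Those scalings moved the median fold change of all genes by -0.15 and -0.25 against TMM. H2AC8 had 20, 19 and 16 counts and 10, 9 and 15, with a log2 fold change of -0.23 ± 0.36 that did not pass the test. H4C8, an H4 gene, had 1.73, 2.13 and 1.49 CPM and then 3.58, 2.92 and 5 CPM, with a log2 fold change of 1.1 ± 0.258. H3C4 had 0.685 ± 0.225 and 0.945 ± 0.133 CPM and did not pass.

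H1-2, a linker histone that binds DNA between nucleosomes, went the other way. It had 12.8, 19.1 and 26.1 CPM in control libraries and 10.1, 10.9 and 12.7 CPM in senescent ones, a log2 fold change of -0.77 ± 0.187 (edgeR, adjusted p = 0.00107). All senescent values lay below the lowest control value, by little, and the control libraries were far apart. Control replicate 3, with the most H1-2, also had the highest sum of 26 S-phase genes, 769 CPM against 674 and 656 CPM. Without control replicate 3 the log2 fold change was -0.5 (edgeR, adjusted p = 0.00872) and without control replicate 1 it was -1, and the call held without each of the 6 libraries in turn. The part of this difference in S-phase content between the control libraries was not tested.

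Members under the filter are described by counts. The 51 untested members together had 73, 69 and 49 counts in control and 12, 30 and 31 in senescent DMSO libraries, or 2.72 ± 0.257 and 1.44 ± 0.608 CPM. H3C12, an H3 gene, had 12, 10 and 2 counts in control and 0, 0 and 0 in senescent libraries. H4C3 had 6, 4 and 9 counts in control and 0, 0 and 1 in senescent libraries. With no filter on low counts, where 21430 genes were tested, both were called lower by edgeR (adjusted p = 0.00099 and 0.0173), as were H2AC17 (0.0122) and H2AC20 (0.0197), all 4 chosen after their values were seen. H3C12 and H2AC17 overlap on the same strand, over 40.3% and 71% of their exonic bases, so their counts may not be separate.

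**Figure D3:**
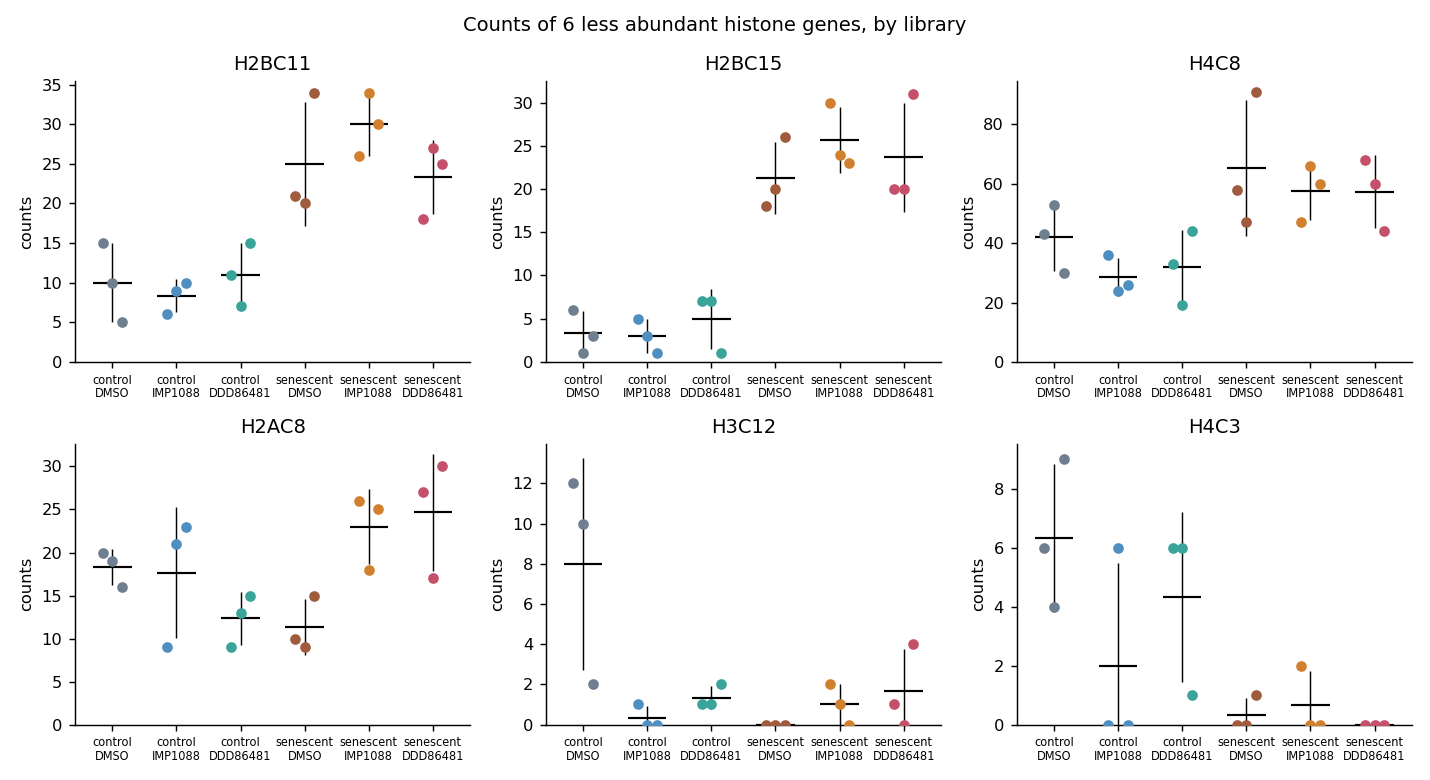
Counts of 6 less abundant histone genes, 1 panel a gene, with a point for each of 3 libraries of a group, a horizontal line at the mean and a vertical line of 1 SD. H2BC11 and H2BC15 are higher in all senescent than in all control libraries, and H3C12 has 12, 10 and 2 counts in control DMSO cells and at most 4 in any other library.

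In control cells, NMT inhibition changed 1 tested member. H2BC21 rose with both inhibitors and the other 14 did not pass the test with either. With IMP1088 this was 1 of 15, against 33.7% of all genes called (16.3% higher), and with DDD86481 1 of 15, against 36.6% (17.8% higher). The share of tested members called was 6.67% in both. The inhibitors were given at different doses and shared their DMSO libraries, so their values stand side by side without a comparison. H2BC21 had 19.9, 18.8 and 15.2 CPM with IMP1088 and 20.2, 20.9 and 13.6 CPM with DDD86481, against 12.1, 10.3 and 8.26 CPM with DMSO, and neither drug group overlapped the DMSO group. Its log2 fold changes were 0.81 ± 0.19 and 0.83 ± 0.191 (edgeR, adjusted p = 0.00266 and 0.00221), and both kept their call without any single library. H2BC12 had 58.8 ± 12.4 CPM with DMSO, 55.8 ± 3.15 with IMP1088 and 52.3 ± 1.77 with DDD86481. H1-2 had 15.8 ± 1.03 and 15.7 ± 2.09 CPM with the drugs, within the range of the DMSO libraries, and its log2 fold change was -0.29 in both. It was called lower with both drugs when control DMSO replicate 1, its lowest DMSO library, was left out.

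In senescent cells, H2BC4, H1-2 and H2AC8 rose with both inhibitors and no tested member fell. This was 3 of 15 with IMP1088, against 44.4% of all genes called (20.6% higher and 23.9% lower), and 3 of 15 with DDD86481, against 43.2% (20.1% higher and 23.1% lower). The members' share of 20% was near the share of all genes that rose. The median log2 fold change of the 15 was 0.27 with IMP1088 and 0.3 with DDD86481, and -0.04 over all genes in both.

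H2BC4, which had 7.41, 7.9 and 9.39 CPM with DMSO, had 13.7, 15.8 and 13.9 CPM with IMP1088 and 5.4, 15.9 and 18.5 CPM with DDD86481. The IMP1088 libraries all lay above the DMSO libraries, whereas replicate 1 of DDD86481 lay below them. The log2 fold changes were 0.81 ± 0.271 and 0.68 ± 0.272 (edgeR, adjusted p = 0.0199 and 0.0486). The call with DDD86481 was lost with the replicate number as a block (0.0535) and without any of 5 single libraries, and was 1.06 without replicate 1.

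H1-2, lowered by senescence, had 14.5, 18 and 14.5 CPM with IMP1088 and 16.6, 18.4 and 15.6 CPM with DDD86481, all above the senescent DMSO values of 10.1, 10.9 and 12.7 CPM. Its log2 fold changes were 0.48 ± 0.19 and 0.58 ± 0.189 (edgeR, adjusted p = 0.0477 and 0.0175). These levels lay within the spread of the control DMSO libraries. H2AC8 had 10, 9 and 15 counts with DMSO, 26, 18 and 25 with IMP1088 and 27, 17 and 30 with DDD86481, groups that did not overlap. Its log2 fold changes were 0.9 ± 0.348 and 1.04 ± 0.344 (edgeR, adjusted p = 0.0409 and 0.0192). All of these calls lay close to the threshold, and no member was called with either drug when senescent DMSO replicate 1 or replicate 2 was left out.

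H2BC12 had 88.6, 92.1 and 91.1 CPM with IMP1088 and 52.8, 89.6 and 95.6 CPM with DDD86481, against 72, 69.3 and 72.4 CPM with DMSO. The IMP1088 group lay above DMSO in every library, but the log2 fold change of 0.35 ± 0.158 did not pass (edgeR, adjusted p = 0.0798). With DDD86481, replicate 1 lay below all DMSO libraries. Without that library 4 members were called, among them H2BC12 and H2BC21, and H2AC8 was not. In the same library H2AC6 was at its highest, 37.8 CPM against 27.5 and 33.2 CPM. H2BC15, H2BC11 and H4C8, which rose with senescence, had log2 fold changes between -0.28 and 0.15 with the inhibitors, and none passed.

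**Figure D4:**
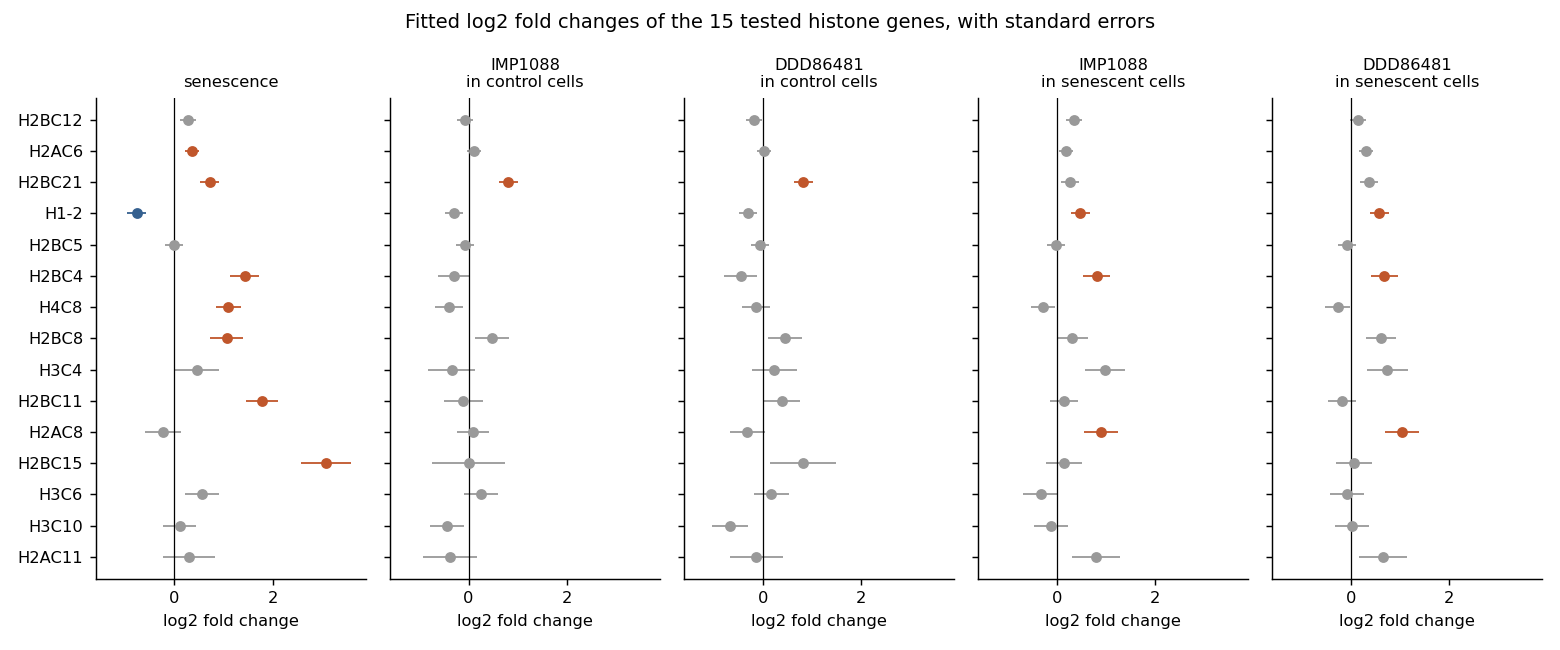
Fitted log2 fold changes of the 15 tested histone genes, in order of mean CPM from top to bottom, with bars of 1 SE, in 5 comparisons against DMSO. Orange points passed the test as higher, blue as lower, and grey points did not pass. Senescence shows a range from -0.77 for H1-2 to 3.09 for H2BC15, H2BC21 is the only coloured point in control cells, and H1-2, H2BC4 and H2AC8 are coloured in senescent cells.

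Whether the inhibitors acted differently in senescent and control cells was tested by the interaction, which subtracts the effect in control cells from that in senescent cells. H1-2 passed with both drugs, at 0.76 ± 0.262 with IMP1088 and 0.87 ± 0.262 with DDD86481 (edgeR, adjusted p = 0.0369 and 0.017). Without control DMSO replicate 3 the value with IMP1088 was 0.49 and did not pass (edgeR, adjusted p = 0.109). H2AC8 passed with DDD86481 alone, at 1.35 ± 0.495 (edgeR, adjusted p = 0.0441), and had 0.81 ± 0.483 with IMP1088. This gave 1 of 15 members against 26.2% of all genes called for IMP1088 (12.1% higher), and 2 of 15 against 30.3% for DDD86481 (14.4% higher). H2BC4 had interactions of 1.1 ± 0.426 and 1.13 ± 0.434 that did not pass (edgeR, adjusted p = 0.0619 and 0.054). H2BC21, which passed in control cells only, had interactions of -0.54 ± 0.267 and -0.46 ± 0.267 that did not pass either, so its response was not shown to differ between the states.

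The summed level of all 66 members was 134 ± 17.3 CPM in control DMSO, 135 ± 8.15 in control IMP1088, 131 ± 9.9 in control DDD86481, 161 ± 10.3 in senescent DMSO, 200 ± 12.6 in senescent IMP1088 and 193 ± 38.1 CPM in senescent DDD86481 libraries. Every senescent DMSO library lay above every control DMSO library, from 155 to 173 CPM against 120 to 153 CPM. The senescent IMP1088 libraries lay between 190 and 214 CPM, and the senescent DDD86481 libraries had 151, 201 and 226 CPM, replicate 1 being below every senescent DMSO library. The difference between control and senescent DMSO libraries rested on the scaling, as plain library totals gave 143 and 144 CPM. With plain totals the senescent IMP1088 and DDD86481 libraries had means of 189 and 181 CPM. The 49 members without a long form in either annotation had 23.8 ± 6.48 CPM in control DMSO, 15.8 ± 2.03 in senescent DMSO, 22 ± 2.08 in senescent IMP1088 and 24.2 ± 2.01 CPM in senescent DDD86481 libraries, and H1-2 made up most of each sum. Without H1-2 these were 4.45 ± 0.24, 4.53 ± 0.696, 6.28 ± 0.0676 and 7.36 ± 2.86 CPM. H2BC8 was part of these sums, with 1.02, 2.14, 2.69 and 3.33 CPM in the same groups. It had no GENCODE entry in which a long form could be sought, so the sums do not show the course of the other members.

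**Figure D5:**
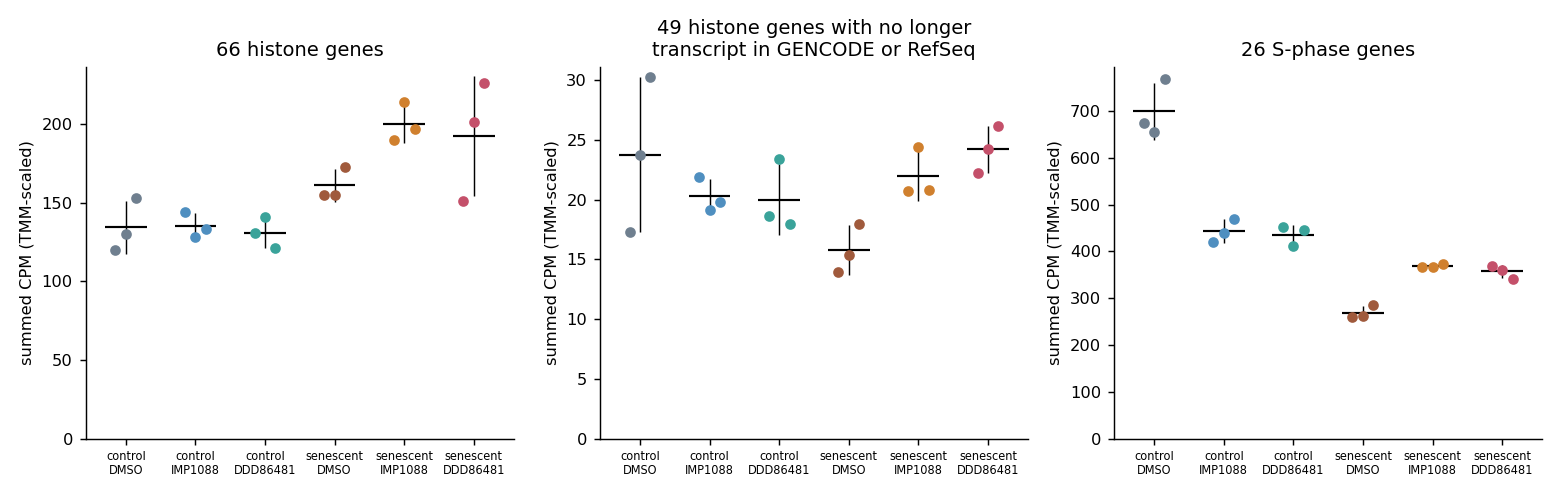
Summed TMM-scaled CPM per library of all 66 histone genes (left), of the 49 without a longer transcript in GENCODE or RefSeq (middle) and of 26 S-phase genes (right), with a point for each of 3 libraries of a group, a horizontal line at the mean and a vertical line of 1 SD. All axes start at 0. In the left panel the senescent IMP1088 libraries lie above all DMSO libraries and 1 senescent DDD86481 library lies at 151 CPM, while the S-phase genes are highest in control DMSO cells, between 656 and 769 CPM.

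The S-phase list gave the reference for replication. All 26 genes were lower in senescent than in control DMSO cells, with a median log2 fold change of -1.6. Among them the helicase subunit MCM2 had 27.3 and 8.11 CPM (log2 fold change -1.75 ± 0.132), and the sliding clamp PCNA had 85.1 and 37.7 CPM (-1.17 ± 0.151). In control cells 21 of 26 fell with IMP1088 and 21 with DDD86481, and none rose. In senescent cells 11 rose and 3 fell with IMP1088, and 8 rose and 2 fell with DDD86481. The summed level of the list was 259 to 285 CPM in senescent DMSO, 367 to 374 CPM in senescent IMP1088 and 342 to 369 CPM in senescent DDD86481 libraries. Of the tested histone members, H1-2 alone fell with senescence, as all of these genes did. It rose in senescent cells with both drugs, as 11 and 8 of the 26 did. In control cells H1-2 did not pass with either drug (log2 fold change -0.29 in both), whereas 21 of the 26 fell with each. With no filter on low counts, H3C12, H4C3, H2AC17 and H2AC20 were also called lower with senescence. A link of H1-2 to replication was not tested.

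Genes that act on histone mRNA had no shared direction with senescence. Counts of these lists are to be read beside the shares of all genes called, as are those of the S-phase genes, chaperones and replacement histones. The shares were 68.5% for senescence, 33.7% and 36.6% for IMP1088 and DDD86481 in control cells, and 44.4% and 43.2% in senescent cells. Of 8 genes for its transcription, 2 rose and 2 fell in senescent cells. NPAT, the coactivator of histone genes, had 20.7 CPM in control and 20.9 CPM in senescent DMSO cells, and it rose with each inhibitor in each state, to 33.7 and 35.6 CPM in control and to 33.5 and 29.2 CPM in senescent cells. E2F1, a factor that drives S-phase genes, rose with senescence by 0.58 ± 0.163 on the log2 scale, and fell by 1.42 with IMP1088 and by 1.26 with DDD86481 in control cells. Of 19 genes for 3′-end processing, 3 rose and 4 fell with senescence. SLBP had 68 and 65.3 CPM (log2 fold change -0.06 ± 0.0983) and did not pass, nor did ZNF473 or LSM11, both U7 snRNP factors, or CPSF3, the nuclease that makes the cut. CASP8AP2, needed for histone transcription and processing, fell from 20.2 to 9.96 CPM, and LSM10, a U7 core protein, rose from 36.8 to 54.3 CPM.

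In control cells, 1 gene of the processing list rose and 5 fell with IMP1088, and 1 rose and 7 fell with DDD86481, SLBP among the latter at -0.31 ± 0.0984. LSM10 fell with both, to 25.6 and 26.9 CPM. In senescent cells 1 rose and none fell with either drug. The exonuclease ERI1, which trims histone mRNA ends, had 30.1 CPM with DMSO, 39.1 with IMP1088 and 35.7 CPM with DDD86481 in senescent cells, and passed with IMP1088 (0.38 ± 0.101). Of 8 genes for histone mRNA decay, 2 rose and 3 fell with senescence, 3 rose and 2 fell with each drug in control cells, and in senescent cells none rose while 1 fell with IMP1088 and 2 with DDD86481. Of 24 histone chaperones, 5 rose and 10 fell with senescence, beside 32.5% of all genes called higher and 36% called lower. ASF1B and CHAF1B, which deliver new histones to replicating DNA, fell from 7.63 to 0.395 CPM and from 8.13 to 1.14 CPM, and both fell in control cells with each drug. For the chaperones the numbers higher and lower were 4 and 12 with IMP1088 and 5 and 10 with DDD86481 in control cells, and 5 and 6, then 5 and 7, in senescent cells.

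Replacement histones, most of which have polyadenylated mRNAs made outside S phase too, were measured in the same libraries. Of 12 genes 11 were tested, and with senescence 3 rose and 6 fell, with a median log2 fold change of -0.52. MACROH2A1 rose from 146 to 183 CPM. H3-3B fell from 385 to 239 CPM and H2AX from 48.4 to 33.8 CPM, and H2AZ1, with 173 and 149 CPM, did not pass. With the drugs in control cells 1 rose and 5 fell with each, among them H2AZ1 to 92.9 and 86.9 CPM and H2AX to 32.2 and 31.2 CPM. In senescent cells 1 rose and 1 fell with IMP1088, and 3 rose and none fell with DDD86481. H3-3A was listed at 0.21 CPM in control DMSO and at 0 in senescent DMSO libraries. It was not tested, and how reads were assigned to its row was not checked, so these values are not read as its expression.

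Counts and CPM given above for different genes were not corrected for length. Per length, levels were compared as CPM per kilobase of exons in GENCODE. In control DMSO cells H2BC12 had 119, H1-2 26.4, H2BC5 15.1, H2AC6 12.5 and H2BC21 4.59 CPM per kilobase. Among replacement histones, H2AZ1 had 76 and H3-3B had 62.8 CPM per kilobase. The value of H2BC12 used its annotated exon of 495 bases, and would be lower if its reads came from the longer transcripts of RefSeq. In senescent cells with IMP1088 the order of the first members was H2BC12 (183), H1-2 (21.4), H2AC6 (18.2), H2BC5 (14.8), H2BC21 (9.2) and H2BC4 (5.01 CPM per kilobase). H2BC4 stood at 1.05 CPM per kilobase in control DMSO cells.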

How the data were processed

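Poly(A) RNA of IMR90 ER:RAS cells was sequenced in 18 libraries, 3 in each of the 6 groups that the labels give. As deposited by the authors, the data are 1 table of counts of reads, not normalized, with gene symbols in rows and libraries in columns. The study's methods describe poly(A) isolation, directional libraries and single-end reads of 75 bases. They name alignment to hg19, whereas the submitters' processing notes list hg38, DRAGEN, STAR 2.7.8a and DESeq2 1.32.0. Which made the table, and the strand setting of counting, are not given in the sources used here, so counts of overlapping genes are uncertain. In the columns DDD86481 is called PCLX001.

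The table had 28266 gene rows, 6836 of them without a count. filterByExpr in edgeR 4.0.16 kept 14341 genes with 99.962% of all counts. TMM scaling and quasi-likelihood tests were applied in 1 fit over the 6 groups, and the Benjamini-Hochberg procedure adjusted p-values over all genes (threshold 0.05). Standard errors are the absolute log2 fold change divided by the square root of F. The floor of 3 counts per library, 0.121 to 0.187 CPM, covers counting error only, as reads carried no molecular identifiers. The test was checked on simulated data.

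Members were read from the full table. The members, gene lists and alternatives were chosen with earlier results of these data known. Named members were the 12 with the highest mean CPM, up to 4 rises and 4 falls per comparison among called members with a group mean of at least 1 CPM, and members called in both interactions, apart from H3C12, H4C3, H2AC17, H2AC20 and members named for sequence or position, which were chosen after their values were seen. Positions, lengths and stem-loops came from GENCODE v44lift37 on GRCh37, 61 of 66 members having an entry, and promoters from RefSeq on GRCh38.p14. Stem-loops were searched with 1 degenerate pattern of the hairpin.

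To see whether replicate numbers pair libraries, deviations from group means were correlated. Among the comparisons made, every value was above 0.1 only for control DMSO with control IMP1088 (r = 0.55, 0.164 and 0.336). The numbers were taken to pair those libraries, from the correlations alone. Between groups not compared, every value was also above 0.1 for control IMP1088 with control DDD86481 (0.181, 0.449 and 0.218). The same held for senescent IMP1088 with senescent DDD86481 (0.183, 0.202 and 0.257). Libraries of unlike replicate number were not correlated, so the pairing remains an assumption. For senescent with control DMSO r was 0.109, 0.0997 and 0.189. Alternatives were upper quartile and plain library scaling, DESeq2 1.42.0, no filter, fits of the groups compared, a 2-fold threshold, a replicate block and leaving out each library.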

Additional observations from a re-analysis of the deposited data

Results flagged for a closer look

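In 3 results the response of a member to an inhibitor differed between senescent and control cells by the interaction term of the fit. H1-2 had a log2 difference of 0.76 with IMP1088 (edgeR, adjusted p = 0.0369), lost under 7 of 20 alternatives, and of 0.87 with DDD86481 (adjusted p = 0.017), and it was higher with the drug than with DMSO in all 3 senescent libraries of each. H2AC8 had a log2 difference of 1.35 with DDD86481 (edgeR, adjusted p = 0.0441), on 9 to 30 counts per library.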

How the results depend on the processing

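The rises of H2BC4, H2BC11 and H4C8 with senescence kept their call under all 14 alternatives. Those of H2BC21 and H2BC8 and the fall of H1-2 kept it under 13 of 14, as did the rise of H2BC21 with each inhibitor in control cells. The rise of H2AC6 with senescence was lost under 7 of 14. No called member changed direction. The added 2-fold threshold, counted among these alternatives, followed from the fold change of the main fit alone. A call kept or lost under it is no test of stability. Calls made in senescent cells with the inhibitors were less stable than the senescence calls other than that of H2AC6. That of H2BC4 with DDD86481 was lost under 10 of 14 alternatives, and those of H1-2 and H2AC8 with IMP1088 under 7 of 14. Those of H2BC4 with IMP1088 and of H1-2 and H2AC8 with DDD86481 were lost under 4 of 14. The interaction of H1-2 with IMP1088 was lost under 7 of 20 and that of H2AC8 with DDD86481 under 11 of 20. The interaction of H1-2 with DDD86481 was lost only under the 2-fold threshold. The cause was not tested.

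With no filter on low counts, members called numbered 13 for senescence (8 higher, 5 lower), 2 for IMP1088 in control cells, 5 for DDD86481 in senescent cells, and 3 and 4 for the interactions of IMP1088 and DDD86481, as 54 members were tested. With an added 2-fold threshold they numbered 5 for senescence, 0 for each inhibitor in control cells, 0 for IMP1088 and 1 for DDD86481 in senescent cells, and 0 and 1 for the interactions. The fit of only the groups compared called 6 for IMP1088 in senescent cells, and plain library totals, chosen after seeing the data, called 5. For the interaction of IMP1088, 2 were called with upper quartile scaling and 2 with DESeq2.

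With the replicate number as a block in the fit of all libraries, 2 members were called for the interaction of IMP1088. With the block in the fit of only the groups compared, 7 were called for IMP1088 in senescent cells, 5 for DDD86481 in senescent cells and 3 for the interaction of IMP1088. For IMP1088 in control cells, where the numbers were taken to pair the libraries, the block changed no call.

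Leaving out 1 library at a time gave 6 to 8 members for senescence, 1 to 2 for IMP1088 and 1 to 2 for DDD86481 in control cells, 0 to 3 for IMP1088 and 0 to 4 for DDD86481 in senescent cells, and 0 to 1 and 1 to 3 for the interactions. Counts fell to 0 without senescent DMSO replicate 1 or 2 for each drug in senescent cells, and without control DMSO replicate 3, control IMP1088 replicate 2, senescent DMSO replicate 1 or 2, or senescent IMP1088 replicate 2 for the interaction of IMP1088. H1-2 was also called in control cells with each drug without control DMSO replicate 1.

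The summed level with plain library totals was 143, 147 and 142 CPM in control DMSO, IMP1088 and DDD86481 libraries. In the senescent ones it was 144, 189 and 181 CPM. Without H2BC12 it was 75.6, 79.5 and 78.7 CPM in control DMSO, IMP1088 and DDD86481 libraries, and 89.6, 110 and 114 CPM in the senescent ones. The share of member counts in genes with a long form was 43.2% by GENCODE and 86.6% when RefSeq was added, a choice made after seeing the data. Depth limits the 51 untested members, of which 34 never passed 3 counts.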
